A study of Mirounga angustirostris with 8 samples.

Results

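The insulin signaling and GLUT4 genes examined here carry the insulin signal in muscle from the receptor to glucose uptake. They are INSR, IRS1, IRS2, PIK3R1, AKT1, AKT2, TBC1D4, TBC1D1, SLC2A4 and SLC2A4RG. The set was chosen with earlier results of these data known, and its rows were found by gene symbol. All 10 were present among the 24337 gene entries of the read count table. All were also among the 14312 genes with enough reads to test. RNA was sequenced from biopsies of the longissimus dorsi, a swimming muscle of the back, of free-ranging adult female northern elephant seals (NES, Mirounga angustirostris), which fast on land with little activity while they replace hair and skin. The 4 post-molt libraries came from seals 4448, 5572, 9678 and X410, sampled late in the molt. The study took its post-molt samples a mean of 34 days after the first sample, and gave no mean for these 4 libraries alone. The 4 pre-molt libraries came from seals 5572, 5842, 6762 and C497, sampled within 5 days of coming ashore. No agent or genetic change sets the groups apart, and ages were not given. Of the 7 seals, 1 (seal 5572) has a library in each group, so no pairing was used. The libraries analysed were those of each time point with the most uniquely mapped reads. The authors made this choice because RNA of low quality had sequenced poorly in some samples.

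Insulin binds its receptor on the muscle fiber, which phosphorylates docking proteins (the insulin receptor substrates) that recruit phosphoinositide 3-kinase and so switch on the kinase AKT. AKT then inactivates TBC1D4, a brake on small Rab GTPases, and vesicles that hold the glucose transporter GLUT4 fuse with the cell surface. Most of this control is by phosphorylation and by movement of protein within the cell, neither of which RNA levels measure.

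The libraries held 30769570 to 61216192 counts post-molt and 37897904 to 56137977 counts pre-molt. They differed in how many genes were detected. Of the tested genes, 3 to 2116 had no read in a post-molt library (2116 in seal 9678) and 56 to 1119 in a pre-molt library (1119 in seal 5842). The 10 genes were well covered, with counts in a library between 68 (TBC1D1 in post-molt seal 9678) and 40849 (AKT1 in post-molt seal 4448). Levels are given as counts-per-million values (CPM) after TMM scaling of library size, and they are compared between libraries for 1 gene at a time, because gene lengths were not used. Genes of muscle fibers were abundant in all libraries, with summed levels of 8 fiber genes at 164917 to 234368 CPM post-molt and 179871 to 279723 CPM pre-molt. Of these, TTN and NEB varied more. TTN was at 2663, 1630, 25276.5 and 4194 CPM in post-molt seals 4448, 5572, 9678 and X410. In pre-molt seals 5572, 5842, 6762 and C497 it was at 1152, 28797, 21836.5 and 16475 CPM. NEB was at 645 to 2255 CPM in post-molt seals 4448, 5572 and X410 and in pre-molt seal 5572. In the other libraries it was at 3279 to 6488 CPM. The cause of this split and its part in the 10 genes were not tested.

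The mean levels of IRS1, PIK3R1, SLC2A4 and AKT2 were 1.55 to 2.01 times as high post-molt as pre-molt, and that of SLC2A4RG, a binding protein of the SLC2A4 promoter, was 0.451 times as high. The mean levels of INSR, IRS2, TBC1D4 and TBC1D1 differed by less than the SD of either group. The mean levels of AKT1 differed by less than the pre-molt SD but by more than the post-molt SD. In the quasi-likelihood test of edgeR with Benjamini-Hochberg adjustment over all tested genes, 0 of the 10 genes passed an adjusted p of 0.05, against 0.349% of all genes tested. At an unadjusted p under 0.05 there were 5 of 10 (4 higher and 1 lower post-molt), against 11.4% of all genes. The libraries of both groups did not overlap for 3 of 10 genes (IRS1 and AKT2 above, SLC2A4RG below), against 9.16% of all genes. DESeq2 called 4 of 10 at an adjusted p under 0.05 (IRS1, PIK3R1 and AKT2 higher, SLC2A4RG lower), against 6.44% of the 10117 genes it gave an adjusted p. Limma-voom called 0. The median log2 fold change was 0.20 over the 10 genes and -0.04 over all genes tested, and 8 of the 10 were positive (7 with upper-quartile scaling, where TBC1D4 turned to just below 0).

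**Figure D1:**
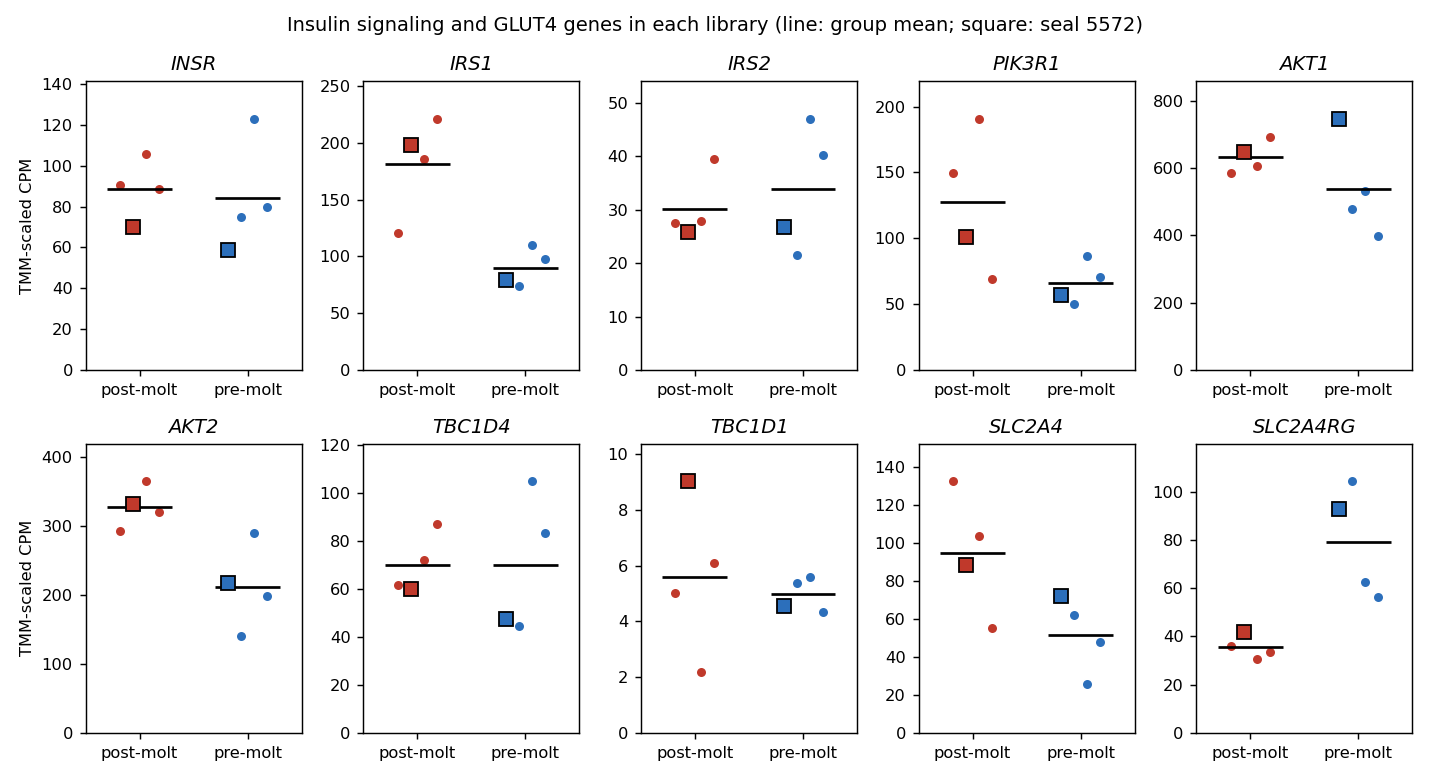
Level of each of the 10 genes in CPM (vertical axis of each panel, starting at 0) in the 4 post-molt libraries (left) and the 4 pre-molt libraries (right); points are libraries, squares are seal 5572 and lines are group means. All post-molt points lie above the pre-molt points for IRS1 and AKT2 and below them for SLC2A4RG, and the groups overlap for the other 7 genes.

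INSR encodes the insulin receptor. Its level was 90.3, 69.96, 106 and 88.5 CPM in post-molt seals 4448, 5572, 9678 and X410, against 58.8, 74.7, 123 and 79.6 CPM in pre-molt seals 5572, 5842, 6762 and C497. The post-molt range lay wholly inside the pre-molt range, whose lowest library was seal 5572 and whose highest was seal 6762. The log2 fold change, post-molt over pre-molt as throughout, was 0.08 ± 0.24 (SE; adjusted p = 0.951 by edgeR), with a 95% interval from -0.44 to 0.59.

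IRS1 and IRS2 encode the receptor substrates that dock phosphoinositide 3-kinase, and their RNAs differed in pattern. IRS1 was at 120, 198, 186 and 221 CPM post-molt (seals in the same order as above), against 79.2, 74.2, 110 and 97.5 CPM pre-molt. Every post-molt library lay above every pre-molt library, with seal 4448 the lowest of the post-molt group. Means were 181 ± 43.3 CPM post-molt and 90.2 ± 16.5 CPM pre-molt (SD, n = 4 each), a log2 fold change of 1.01 ± 0.22 (SE) with a 95% interval from 0.52 to 1.49. The adjusted p was 0.0700 by edgeR, 0.0580 by limma-voom and 6.04e-04 by DESeq2. The DESeq2 call for IRS1 was made in 8 of 8 fits that left out 1 library, but not without both libraries of seal 5572 (adjusted p = 0.0610). Seal 5572 alone gave a post-molt minus pre-molt difference of 1.32 in log2 CPM.

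IRS2 was at 27.5, 25.8, 27.9 and 39.5 CPM post-molt, against 26.8, 21.6, 47.0 and 40.2 CPM pre-molt. The groups overlapped, with post-molt seal X410 apart from the other 3 post-molt libraries. Its log2 fold change was -0.17 ± 0.26 (SE; adjusted p = 0.894 by edgeR).

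Set against each other within a library, which takes out library scaling, the log2 ratio of IRS1 to IRS2 reads was 2.13, 2.94, 2.73 and 2.48 in post-molt libraries and 1.56, 1.78, 1.23 and 1.28 in pre-molt libraries. The groups did not overlap in this ratio. The difference of the means was 1.11 on the log2 scale (two-sided exact permutation test, p = 0.0286, the smallest that 4 against 4 libraries can give; adjusted p = 0.114 over the 4 ratios tested). Seal 5572 had 2.94 post-molt and 1.56 pre-molt.

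PIK3R1 encodes the p85-alpha regulatory subunit, which brings phosphoinositide 3-kinase to the substrates. It was at 150 CPM in post-molt seal 4448, 101 CPM in seal 5572, 191 CPM in seal 9678 and 69.4 CPM in seal X410, against 56.7, 49.99, 86.9 and 70.7 CPM in the pre-molt libraries. Of the post-molt libraries, 3 lay above all pre-molt libraries, and seal X410 lay below pre-molt seals 6762 and C497. Means were 128 ± 53.5 CPM post-molt and 66.1 ± 16.3 CPM pre-molt (SD, n = 4 each). The log2 fold change was 0.95 ± 0.30 (SE), with a 95% interval from 0.30 to 1.59 and an adjusted p of 0.192 by edgeR and 0.0415 by DESeq2. This DESeq2 call was kept in 2 of 8 fits that left out 1 library (without pre-molt seal 6762 or without post-molt seal X410).

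AKT1 and AKT2 encode the kinase at the center of the pathway, and AKT2 is the form most tied to glucose uptake in mouse and human muscle. AKT2 was at 292, 332, 364 and 320 CPM post-molt, against 217, 141, 290 and 198 CPM pre-molt. The groups did not overlap, but only narrowly, at 292 CPM in post-molt seal 4448 and 290 CPM in pre-molt seal 6762. Means were 327 ± 30.0 CPM post-molt and 211 ± 61.4 CPM pre-molt (SD, n = 4 each), a log2 fold change of 0.63 ± 0.22 (SE) with a 95% interval from 0.14 to 1.12. The adjusted p was 0.262 by edgeR and 0.0470 by DESeq2, and the DESeq2 call was kept in 1 of 8 fits that left out 1 library (without pre-molt seal 6762).

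AKT1 was at 586, 649, 607 and 691 CPM post-molt, against 746, 478, 532 and 400 CPM pre-molt. All post-molt values lay between the highest pre-molt library, seal 5572, and the other 3 pre-molt libraries. The log2 fold change was 0.23 ± 0.22 (SE; adjusted p = 0.789 by edgeR). The log2 ratio of AKT2 to AKT1 reads was -0.96 ± 0.16 post-molt and -1.36 ± 0.48 pre-molt (SD, n = 4 each), and the groups overlapped (two-sided exact permutation test, p = 0.229, adjusted p = 0.305).

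**Figure D2:**
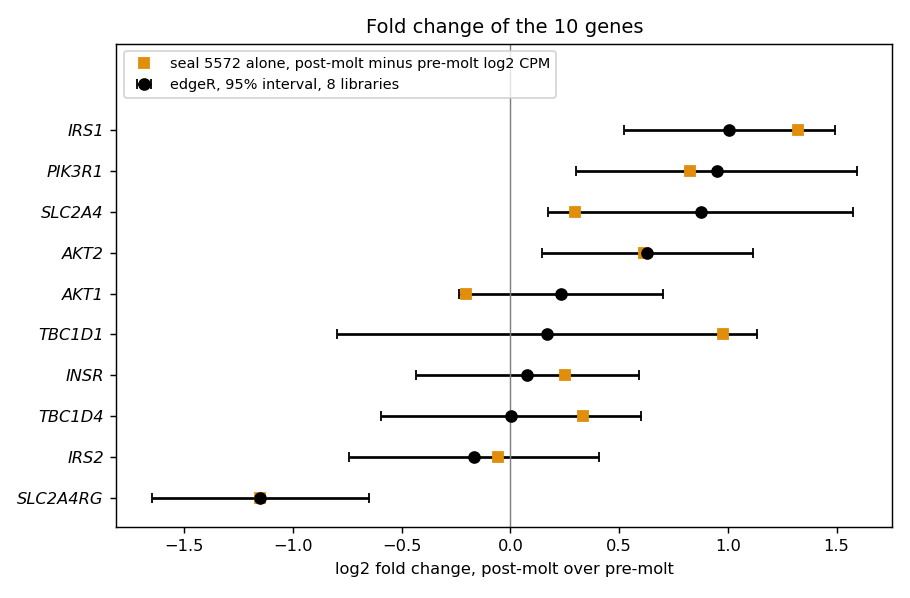
Log2 fold change of each gene, post-molt over pre-molt, from edgeR (horizontal axis; black points are estimates with bars for 95% intervals, orange squares are the difference in log2 CPM within seal 5572, and the vertical line marks no difference). The intervals of IRS1 (0.52 to 1.49), PIK3R1, SLC2A4 and AKT2 lie above 0, that of SLC2A4RG (-1.65 to -0.65) lies below 0, and those of the other 5 genes span 0.

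TBC1D4 and TBC1D1 encode related GTPase-activating proteins that hold GLUT4 vesicles inside the fiber until they are phosphorylated, TBC1D4 mainly through AKT and TBC1D1 also through AMPK. TBC1D4 was at 61.8, 59.9, 71.9 and 87.1 CPM post-molt, against 47.5, 44.5, 105 and 83.2 CPM pre-molt, with the post-molt range inside the pre-molt range. Its log2 fold change was 0.00 ± 0.28 (SE; adjusted p = 0.999 by edgeR), with a 95% interval from -0.60 to 0.60, so differences within that range were not excluded.

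TBC1D1 had the fewest reads of the 10 genes. It was at 5.03, 9.03, 2.19 and 6.10 CPM post-molt, against 4.57, 5.39, 5.60 and 4.33 CPM pre-molt. The pre-molt libraries lay close together, and the post-molt libraries lay on both sides of them, with seal 5572 highest and seal 9678 lowest. Its log2 fold change was 0.17 ± 0.45 (SE; adjusted p = 0.945 by edgeR). The log2 ratio of TBC1D4 to TBC1D1 reads was 3.80 ± 0.95 post-molt and 3.73 ± 0.61 pre-molt (SD, n = 4 each; two-sided exact permutation test, p = 0.886, adjusted p = 0.886).

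SLC2A4 encodes GLUT4, the glucose transporter that insulin and contraction bring to the surface of muscle and fat cells. It was at 133, 88.5, 104 and 55.4 CPM in post-molt seals 4448, 5572, 9678 and X410, against 72.0, 62.0, 25.8 and 47.7 CPM in pre-molt seals 5572, 5842, 6762 and C497. Of the post-molt libraries, 3 lay above all pre-molt libraries. Seal X410 lay below pre-molt seals 5572 and 5842, and pre-molt seal 6762 was the lowest of all. Means were 95.1 ± 32.2 CPM post-molt and 51.9 ± 20.1 CPM pre-molt (SD, n = 4 each). The log2 fold change was 0.88 ± 0.32 (SE), with a 95% interval from 0.17 to 1.58, and it passed neither edgeR (adjusted p = 0.290) nor DESeq2 (adjusted p = 0.113). In the 8 DESeq2 fits that left out 1 library the adjusted p ran from 0.0441 (without post-molt seal X410, the 1 fit that called it) to 0.369 (without post-molt seal 4448). Within seal 5572 the post-molt minus pre-molt difference was 0.30 in log2 CPM.

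SLC2A1 encodes GLUT1, the transporter that carries basal glucose uptake. Its mean was 7.48 ± 1.71 CPM post-molt and 7.55 ± 2.66 CPM pre-molt (SD, n = 4 each), a log2 fold change of -0.01 ± 0.34 (SE; adjusted p = 0.996 by edgeR). The sign of that value turns under DESeq2 scaling and in the other settings given at the end. The log2 ratio of SLC2A4 to SLC2A1 reads was 3.79, 3.45, 3.999 and 3.26 post-molt, against 2.64, 3.27, 2.07 and 2.96 pre-molt. The groups overlapped only at post-molt seal X410 and pre-molt seal 5842. The difference of means was 0.89 on the log2 scale (two-sided exact permutation test, p = 0.0571, adjusted p = 0.114).

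SLC2A4RG encodes a zinc finger protein described in human and mouse cells as a factor that binds the SLC2A4 promoter with MEF2A. It was at 36.0, 41.8, 30.8 and 33.6 CPM post-molt, against 93.0, 104, 62.4 and 56.1 CPM pre-molt. The highest post-molt library, seal 5572, lay below the lowest pre-molt library, seal C497. Means were 35.6 ± 4.67 CPM post-molt and 78.9 ± 23.3 CPM pre-molt (SD, n = 4 each), a log2 fold change of -1.15 ± 0.23 (SE) with a 95% interval from -1.65 to -0.65. The adjusted p was 0.0546 by edgeR, 0.0505 by limma-voom and 4.88e-04 by DESeq2. In the 8 edgeR fits that left out 1 library the adjusted p ran from 0.0489 (without pre-molt seal C497, the 1 fit that called it) to 0.140, and the DESeq2 call held in all 8 fits short of 1 library, and also when both libraries of seal 5572 were removed (adjusted p = 0.0253). Within seal 5572 the difference in log2 CPM was -1.15. SLC2A4 and SLC2A4RG thus had mean differences of opposite sign between the same libraries.

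**Figure D3:**
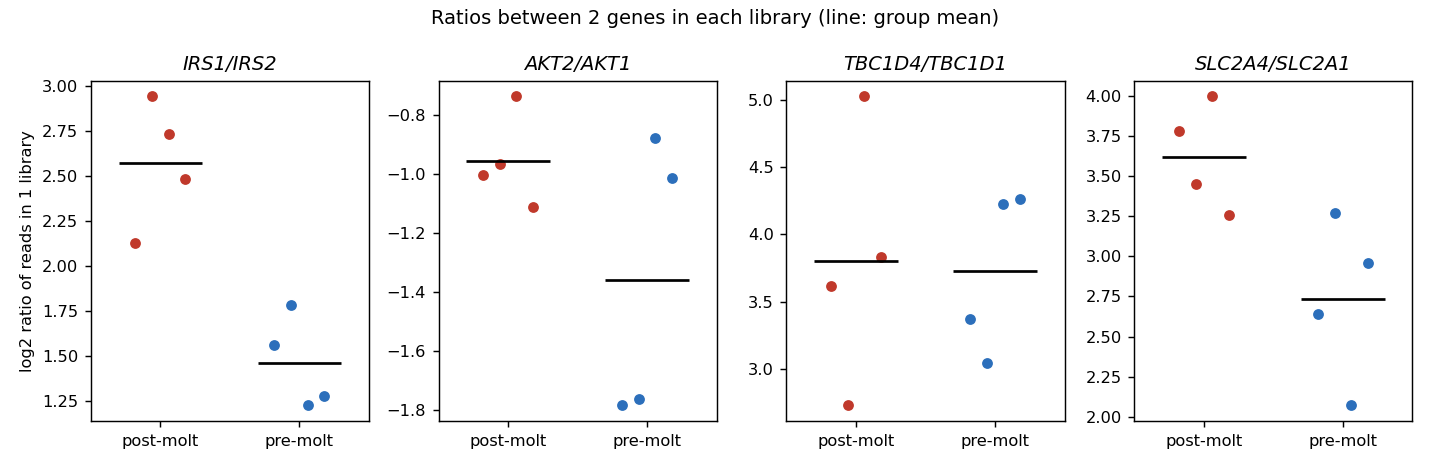
Log2 ratio of the reads of 2 genes in each library (vertical axis), for IRS1/IRS2, AKT2/AKT1, TBC1D4/TBC1D1 and SLC2A4/SLC2A1, with post-molt libraries left and pre-molt libraries right; points are libraries and lines are group means. The groups separate for IRS1/IRS2 (2.57 ± 0.35 post-molt and 1.46 ± 0.26 pre-molt) and overlap for the other 3 ratios.

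The genes did not vary alike from library to library. Across the post-molt libraries the coefficient of variation was smaller than across the pre-molt libraries for 7 of the 10 genes, as it was for 50.4% of all tested genes. It was 7.36% post-molt and 27.6% pre-molt for AKT1, and 9.18% post-molt and 29.1% pre-molt for AKT2. The order was turned for TBC1D1, at 50.5% post-molt and 12.4% pre-molt, for PIK3R1, at 41.9% post-molt and 24.7% pre-molt, and for IRS1, at 23.9% post-molt and 18.3% pre-molt. Pre-molt seal 6762 had the highest level of its group for 7 of the 10 genes, as against 25.2% of all tested genes, and the lowest for SLC2A4.

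Genes whose log2 CPM followed a member most closely over the 8 libraries were sought among 8589 genes, as a description without a test. These points share library and depth. INSR was followed most closely by PCGF5 (Pearson r = 0.965), ZBTB18 and UPF2 (r = 0.955 each). IRS1 was followed by MSI2 (r = 0.984), PSAP (r = 0.978) and RRAGD (r = 0.975). SLC2A4 was followed by ARIH2OS (r = 0.961), HMG20B (r = 0.959) and TRIM54 (r = 0.957). The genes most like IRS1 had smaller fold changes than IRS1 itself, with log2 fold changes of 0.55 ± 0.21 for MSI2, 0.27 ± 0.18 for PSAP and 0.73 ± 0.24 for RRAGD (SE; adjusted p from 0.211 to 0.657 by edgeR).

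The other genes of the pathway were counted in 7 lists by role, drawn up with earlier results of these data known. The counts describe these lists and do not test them. EdgeR called 3 of the 163 tested genes (1.84%, against 0.349% of all genes), all higher post-molt. At an unadjusted p under 0.05 there were 22 of 163 (13.5%), near the 11.4% of all genes. DESeq2 called 10 of the 163, against 6.44% of all genes it gave an adjusted p. Some of the 163, NR4A3 and SLC2A10 among them, had no adjusted p by DESeq2. Among 20 tested receptor adaptors and receptor brakes, edgeR and DESeq2 called 0, and edgeR had 1 higher and 1 lower gene with an unadjusted p under 0.05 (list median log2 fold change -0.07). The higher was SH2B2, an adaptor of the activated receptor, at 75.8 ± 3.95 CPM post-molt and 55.4 ± 8.30 CPM pre-molt (adjusted p = 0.319 by edgeR). The lower was GAB1, a docking protein related to the receptor substrates, at 26.0 ± 1.87 CPM post-molt and 40.8 ± 14.2 CPM pre-molt (adjusted p = 0.279 by edgeR). The groups overlapped for neither gene. SH2B1, a relative of SH2B2, had a log2 fold change of 0.52 ± 0.27 (SE; adjusted p = 0.535 by edgeR).

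Of 17 tested phosphoinositide 3-kinase subunits and phosphoinositide phosphatases, edgeR and DESeq2 called 0. By edgeR 2 higher and 0 lower genes had an unadjusted p under 0.05, and the median was -0.10. PIK3C2B, a class II kinase, had a log2 fold change of 0.59 ± 0.24 (SE; adjusted p = 0.342), and INPPL1, the phosphatase SHIP2, one of 0.47 ± 0.20 (SE; adjusted p = 0.384, both by edgeR).

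Of 18 tested genes of AKT activation and inactivation, 1 rose by edgeR (unadjusted p under 0.05 in 2 higher genes and 1 lower, median 0.09). FKBP5, a co-chaperone that can hold AKT near its phosphatase PHLPP and that glucocorticoids induce, was at 121, 53.9, 96.6 and 21.2 CPM post-molt, against 12.3, 8.50, 19.6 and 10.6 CPM pre-molt (log2 fold change 2.52 ± 0.46, SE; adjusted p = 0.0422 by edgeR). Its lowest post-molt library, seal X410, lay just above its highest pre-molt library. The edgeR call was kept in 2 of 8 fits that left out 1 library (without pre-molt seal 6762 or post-molt seal X410), with adjusted p from 0.0160 to 0.114. TRIB1, a pseudokinase of a family that binds AKT, had a log2 fold change of 1.41 ± 0.39 (SE; adjusted p = 0.140 by edgeR and 0.0147 by DESeq2), with overlapping groups. PPP2R1A, the scaffold of the phosphatase PP2A, was at 149 ± 17.9 CPM post-molt and 203 ± 25.2 CPM pre-molt (adjusted p = 0.350 by edgeR).

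**Figure D4:**
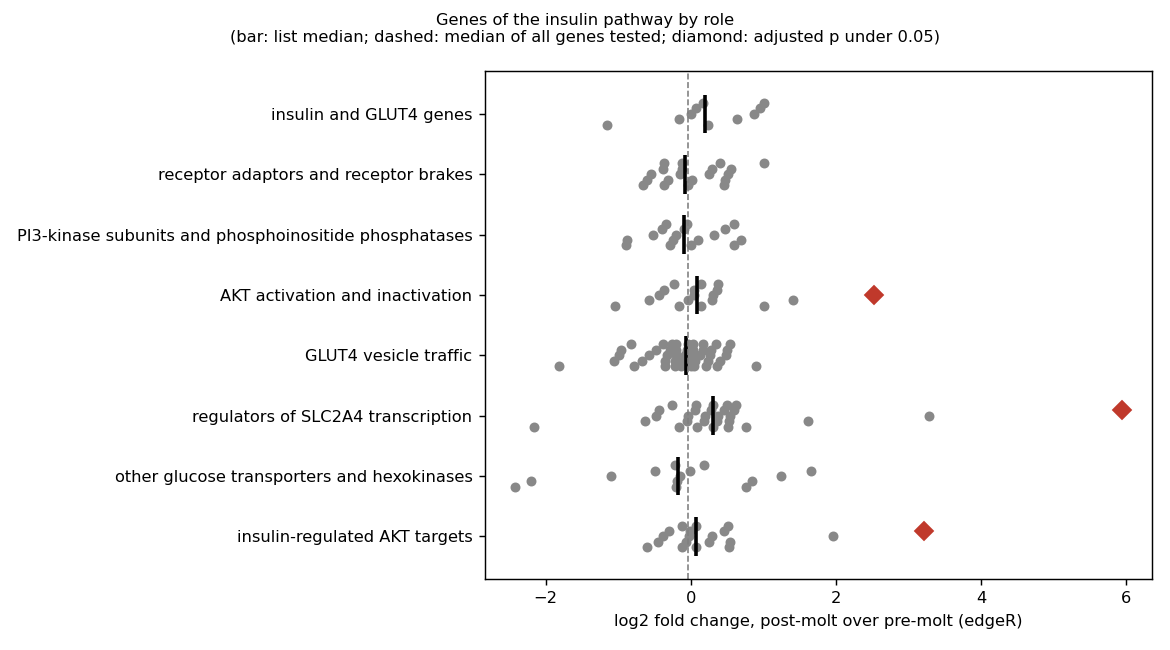
Log2 fold change, post-molt over pre-molt (horizontal axis), of each tested gene of the pathway by role; circles are genes, diamonds are genes with an edgeR adjusted p under 0.05, bars are list medians and the dashed line is the median of all genes tested (-0.04). List medians lie between -0.17 and 0.30, and the 3 diamonds are FKBP5, NR4A3 and PPP1R3C.

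The machinery of GLUT4 vesicle traffic was the largest list, and of its 46 tested genes edgeR called 0, while 1 higher and 1 lower gene had an unadjusted p under 0.05 (median -0.07) and DESeq2 called both. GGA2, a clathrin adaptor that sorts GLUT4 into its storage vesicles, was at 55.6, 58.4, 52.7 and 41.4 CPM post-molt, against 25.1, 24.2, 27.4 and 35.3 CPM pre-molt (log2 fold change 0.89 ± 0.20, SE; adjusted p = 0.0723 by edgeR and 0.00116 by DESeq2). STX4, the syntaxin of the surface membrane with which GLUT4 vesicles fuse, was at 5.96, 11.7, 5.81 and 11.3 CPM post-molt, against 17.8, 21.4, 17.8 and 15.1 CPM pre-molt (log2 fold change -1.05 ± 0.30, SE; adjusted p = 0.156 by edgeR and 0.0236 by DESeq2). The groups overlapped for neither gene. CLTCL1, the clathrin heavy chain CHC22 that acts in human GLUT4 traffic, had a log2 fold change of -0.48 ± 0.23 (SE; adjusted p = 0.464 by edgeR).

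Among 29 tested regulators of SLC2A4 transcription, 21 had log2 fold changes above 0 (46.5% of all genes did) around a median of 0.30, edgeR called 1 higher, and 5 higher and 2 lower genes had an unadjusted p under 0.05. The called gene was NR4A3, an orphan nuclear receptor that exercise and adrenergic signals induce, at 3.70, 4.86, 4.94 and 55.6 CPM post-molt, against 0.285, 0, 0.536 and 0.252 CPM pre-molt (adjusted p = 0.0432 by edgeR, and no adjusted p by DESeq2). Its relative NR4A1 was at 213, 45.7, 30.2 and 361 CPM post-molt, against 12.4, 15.4, 19.9 and 19.2 CPM pre-molt (log2 fold change 3.28 ± 0.65, SE; adjusted p = 0.0542 by edgeR and 0.00140 by DESeq2). For both genes seal X410 was the highest post-molt library. The NR4A3 call was lost whichever library was left out (adjusted p from 0.0505 to 0.186 by edgeR), and its log2 fold change was 5.94 with all libraries and 4.04 without seal X410. NR4A1 was called by edgeR in 2 of 8 such fits (without post-molt seal 5572 or 9678), with adjusted p from 0.0245 to 0.133, and its log2 fold change was 2.53 without seal X410. MEF2D, of the MEF2 family that binds the SLC2A4 promoter, was at 97.9 ± 7.90 CPM post-molt and 69.3 ± 5.79 CPM pre-molt without overlap (log2 fold change 0.50 ± 0.17, SE; adjusted p = 0.224 by edgeR and 0.0112 by DESeq2).

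Of 14 tested other glucose transporters, hexokinases and arrestin-domain regulators, edgeR called 0, though 2 higher and 0 lower genes had an unadjusted p under 0.05 (median -0.17), and DESeq2 called 1. TXNIP, which promotes removal of GLUT1 and GLUT4 from the cell surface and whose RNA glucose induces, was at 1272, 1407, 1029 and 981 CPM post-molt, against 507, 627, 945 and 686 CPM pre-molt (log2 fold change 0.76 ± 0.23, SE; adjusted p = 0.180 by edgeR and 0.0159 by DESeq2). The lowest post-molt library, seal X410, was above the highest pre-molt library, seal 6762. Its relative ARRDC4 had a log2 fold change of 1.66 ± 0.58 (SE; adjusted p = 0.250 by edgeR), and SLC2A10, which encodes GLUT10, one of 1.24 ± 0.81 (SE; adjusted p = 0.648 by edgeR).

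Of 19 tested insulin-regulated AKT targets and related kinases, 1 rose by edgeR (unadjusted p under 0.05 in 3 higher genes and 1 lower, median 0.07). It was PPP1R3C, which brings the phosphatase PP1 to glycogen, at 199, 102, 158 and 154 CPM post-molt, against 6.33, 17.3, 15.1 and 27.1 CPM pre-molt (log2 fold change 3.22 ± 0.38, SE; adjusted p = 0.00590 by edgeR). This call was made in 8 of 8 fits that left out 1 library, but not when pre-molt seal 5842 and post-molt seal 9678 were both left out (adjusted p = 0.0605 by edgeR). PFKFB2, which makes an activator of glycolysis and which AKT phosphorylates in heart, was at 44.8 ± 4.63 CPM post-molt and 11.5 ± 6.63 CPM pre-molt without overlap (log2 fold change 1.96 ± 0.40, SE; adjusted p = 0.0561 by edgeR and 2.11e-04 by DESeq2). PFKFB2 was called by edgeR in 2 of 8 fits with 1 library removed (without pre-molt seal 5842 or 6762), with adjusted p from 0.0339 to 0.133. PRKCQ, a lipid-activated kinase that can act on IRS1, was at 86.7 ± 12.6 CPM post-molt and 132 ± 13.7 CPM pre-molt without overlap (log2 fold change -0.61 ± 0.18, SE; adjusted p = 0.172 by edgeR and 0.00998 by DESeq2).

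Fat cells and other cells of a biopsy also make RNA of these genes, and in bulk tissue fewer cells of a type and less RNA per cell cannot be told apart. The summed level of 12 adipocyte markers was 284 to 547 CPM post-molt and 313 to 566 CPM pre-molt, with overlapping ranges and 0 of 11 tested called by edgeR. PLIN4, a lipid droplet coat protein also made by muscle, held much of that sum, at 150 to 395 CPM post-molt and 135 to 187 CPM pre-molt. Of the 11, 9 had log2 fold changes below 0, with a median of -0.78, and CIDEC, a lipid droplet protein, was lower post-molt without overlap, at 3.36 to 9.78 CPM post-molt and 11.6 to 39.7 CPM pre-molt (adjusted p = 0.0542 by edgeR). Of the markers that define fat cells, LEP was at 0 in 7 of the 8 libraries, and ADIPOQ was at 2.37 to 15.2 CPM post-molt and 3.47 to 30.4 CPM pre-molt. The summed level of 10 fibroblast markers was 226 to 518 CPM post-molt and 497.3 to 1522 CPM pre-molt. Of the 10, 9 had log2 fold changes below 0, with a median of -1.12, and edgeR called 0. The summed level of 9 endothelial markers was 419 to 493 CPM post-molt and 475 to 604 CPM pre-molt. For 7 macrophage markers the sums were 22.2 to 39.7 CPM post-molt and 17.0 to 70.8 CPM pre-molt, and for 7 pericyte and smooth muscle markers 101 to 227 CPM post-molt and 77.9 to 186 CPM pre-molt. The 6 fast fiber genes in the table summed to 4269 to 6264 CPM post-molt, below the 7379 to 21975 CPM pre-molt. ACTN3 made up most of the sum in every post-molt library, at 3453 to 4453 CPM, and in pre-molt seals 5572 and 6762, at 7642 and 7012 CPM. The other 5 fast fiber genes summed to 442 to 1811 CPM post-molt and 367 to 15735 CPM pre-molt. In pre-molt seals 5572 and 6762 TNNT3, TNNI2 and MYLPF lay below every post-molt library, and in pre-molt seals 5842 and C497 above every post-molt library. The 7 slow fiber genes summed to 52660 to 75756 CPM post-molt and 43774 to 94843 CPM pre-molt. EdgeR called 0 of the fast fiber genes and 1 of the slow fiber genes. The part of these marker differences in the values of IRS1, AKT2, PIK3R1, SLC2A4 and SLC2A4RG was not tested.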

How the data were processed

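RNA libraries of longissimus dorsi muscle were sequenced as paired reads. Base calls were converted by the authors (bcl2fastq 2.20), who aligned the reads to a Hawaiian monk seal assembly using STAR. The values they deposited are read counts per gene, whole numbers without scaling. Their own test ran in R 3.4.3 with DESeq2 1.18.1. Which strand the counting used was not given in the sources used here, so a gene and an antisense partner that overlaps it may share reads.

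Of 24349 entries, 12 carry pieces of annotation text in place of a gene name (0.0173 to 0.0259% of a library's counts) and were left out. Genes were kept with edgeR's filterByExpr (minimum count 10, minimum total 15) and scaled with TMM. The main test was the quasi-likelihood test of edgeR 4.0.16 (R 4.3.3), adjusted after Benjamini-Hochberg over all genes tested and called at 0.05, checked on simulated data. SE is the size of the log2 fold change over the square root of F. Alternatives were DESeq2 1.42.0, limma-voom 3.58.1, other scalings and filters, and leaving out libraries. DESeq2 gave no adjusted p to 9283 of 19400 genes. Log2 ratios of counts used a pseudocount of 0.5. No seal term was fitted. No 2 libraries were copies (lowest chi-square per degree of freedom over 28 pairs, 98.96). P-values measure the spread between seals. Count error in these libraries covers sampling of reads only.

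Members and lists were chosen with earlier results of these data known. Beside the 10 genes, the text names in each list every gene called by edgeR and the 3 with the smallest unadjusted p, both genes of each ratio, and the 3 named genes with a mean of at least 5 CPM most like INSR, IRS1 and SLC2A4. One gene that this rule would name is not reported here.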

Additional observations from a re-analysis of the deposited data

Results flagged for a closer look

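Among 90 groups of 4 libraries examined for a library far from the other 3, 4 were marked, and chance alone marks about 1 group in 20. IRS2 was at 39.5 CPM in post-molt seal X410, against 25.8 to 27.9 CPM in the other post-molt libraries, and it was the only marked group among the 10 insulin and GLUT4 genes. NR4A3 was at 55.6 CPM in the same library, against 3.70 to 4.94 CPM in the other post-molt libraries. HMG20B was at 11.4 CPM in that library, against 16.0 to 16.6 CPM in the other post-molt libraries. SLC2A1 was at 11.5 CPM in pre-molt seal 5572, against 6.13 to 6.40 CPM in the other pre-molt libraries.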

How the results depend on the processing

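With 4 libraries a group the calls depended on the tool more than the fold changes did. The number of the 10 genes called was 0 by edgeR, 2 without a filter on low counts (IRS1 and SLC2A4RG), 4 by DESeq2 and 0 to 1 when 1 library was left out. At an unadjusted p under 0.05 it was 5 by edgeR, 3 without pre-molt seal 5842 and post-molt seal 9678 (the libraries with the lowest shares of uniquely mapped reads) and 4 to 5 when 1 library was left out. Of the 163 tested genes of the other lists, edgeR called 3 and DESeq2 10, though some had no adjusted p by DESeq2. The shares over all genes given an adjusted p were 0.349% and 6.44%. DESeq2 on subsets of libraries, added after seeing the data, called 1 of the 10 genes without both libraries of seal 5572, 2 without seals 5842 and 9678, and 2 to 4 without 1 library. Of all genes given an adjusted p, DESeq2 called 337 of 16378 without seal 5572 and 359 of 10427 without seals 5842 and 9678. Without 1 library it called fewer than 652 genes in each fit, except that without pre-molt seal C497 (683 of 10791). Over all genes and libraries, edgeR called 50, or 225 without the filter, against 652 by DESeq2 and 94 by limma-voom. On the subsets edgeR called 9 to 48 without 1 library and 5 without seal 5572. Without seals 5842 and 9678 edgeR called 0 (1330 at an unadjusted p under 0.05).

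The log2 fold changes of IRS1, PIK3R1, AKT1, AKT2, SLC2A4 and SLC2A4RG kept their sign under every setting run. TBC1D4 turned to -0.0046 with upper-quartile scaling, -0.0018 with a filter of 1 CPM in 4 libraries, -0.0703 without seal 5572 and -0.15 without seals 5842 and 9678. Without seal 5572, TBC1D1 turned to -0.20, and without seals 5842 and 9678 INSR turned to -0.0426. SLC2A1 turned to 0.0013 with RLE scaling, 0.0028 without the filter, 0.0036 by DESeq2, 0.0708 by limma-voom, 0.23 without seal 5572 and 0.0106 without seals 5842 and 9678. The TBC1D4/TBC1D1 ratio turned to -0.56 without seals 5842 and 9678. When 1 library was left out, the values ran from -0.0577 to 0.32 for INSR, -0.32 to 0.0329 for IRS2, -0.14 to 0.27 for TBC1D4, -0.15 to 0.44 for TBC1D1, -0.15 to 0.27 for SLC2A1 and -0.33 to 0.43 for the TBC1D4/TBC1D1 ratio. The cause of these turns was not tested. No paired analysis was possible because just 1 seal has a library in each group and the replicate numbers only follow the order of the records.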
